A study of Mus musculus with 11 samples.

Results

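The 10 imprinted gene domains described here are stretches of mouse autosomes whose genes are expressed from 1 parental allele. Their members are all bins of the deposited table, each 500 bp long, that overlap a fixed interval of the mm10 assembly, which gave 980 of the 466039 bins. By size these were Dlk1-Rtl1 on chr12:109400001-109800000 with 218 bins and H19-Kcnq1 on chr7:142400001-143600000 with 215. Igf2r on chr17:12600001-12900000 held 118 bins, Peg10 on chr6:4600001-4900000 held 98 and Gnas on chr2:174200001-174400000 held 85. Snrpn-Ndn on chr7:59800001-62600000 held 80 bins and Peg3 on chr7:6600001-6900000 held 79. The smallest were Plagl1 on chr10:13050001-13150000 with 33 bins, Mest on chr6:30700001-30800000 with 31 and Grb10 on chr11:11900001-12100000 with 23.

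The study captured methylated DNA from livers of mice of 2 inbred strains, DBA/2J and C57BL/6J, in 3 age classes. A methyl-CpG binding protein pulled down sheared DNA, so a bin collects more reads where more of its CpGs are methylated. The DBA/2J libraries were 2 young (108 days, female), 3 mid (2 females of 341 days and a male of 345 days) and 1 old (708 days, female). The C57BL/6J libraries were 2 young (107 days, female), 1 mid (308 days, male) and 2 old (711 days, female). Both males are in the mid class, and the strains are pure lines, so neither parental allele can be told from the other. No label names separate animals, so p-values here measure the spread between libraries, which may be technical. Liver tissue is a mixture of cell types, in which a shift in cell types and a change of methylation within 1 type cannot be told apart.

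An imprinted domain is ruled by a control region, a CpG-rich stretch that is methylated on the copy from 1 parent and unmethylated on the other from the germ line onward. The zinc finger protein ZFP57 binds the methylated copy at the hexamer TGCCGC and keeps it methylated in the early embryo, and CTCF, an insulator protein, binds the unmethylated copy upstream of H19. In adult liver many imprinted genes are silenced after birth, while the control regions keep their marks in nearly all cell types. Control regions were taken here as 13 regions with 101 bins. For 11 genes (Kcnq1ot1, Snrpn, Meg3, Airn, Nespas, Gnas, Peg3, Peg10, Mest, Grb10 and Plagl1) these were bins with at least 10 CpGs within 2 kb of an annotated start. The other two were bins 2 to 4.5 kb upstream of H19 and 11 to 16 kb upstream of Meg3. The Nespas and Gnas regions share 13 bins. Every annotated start of a gene counted, so some regions are wide. Grb10 ran over chr11:11936501-12027000, Gnas over chr2:174283001-174346500 and Mest over chr6:30721501-30744500. The choice covers germ-line and secondary regions, and it can include bins of other promoters or of gene bodies.

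The sequences below show the motifs of the control regions and the letters of the bins in which the strains differed. All are 30 bases of the plus strand of GRCm38, 5′ to 3′. In the first 3, which are all matches of the CTCF core CGNGGNGGC (either strand) in the bins upstream of H19, capitals mark that core, and the first and the third also hold the ZFP57 hexamer, overlapping the core. In the next 9, capitals mark TGCCGC or its reverse complement at the stretch richest in it. In the last 3, capitals mark CpGs: a coding bin of Ndn that collected less DNA in DBA/2J, a bin with no DBA/2J read and a bin that collected more DNA in DBA/2J.
H19 upstream, chr7:142580300-142580329: agtattgtactGCCACCACGcggcatcgtc
H19 upstream, chr7:142580755-142580784: aggagtatgctGCCACCGCGcggtagcatc
H19 upstream, chr7:142582025-142582054: tcgattttgctGCCACCACGcggcaactcc
Kcnq1ot1, chr7:143295657-143295686: tacggagccactGCGGCAaaacgaagatgg
Dlk1-Meg3 intergenic, chr12:109528415-109528444: gTGCCGCgaaccgccgtggaattgTGCCGC
Airn, chr17:12742356-12742385: ccGCGGCActgcgtgagccccggTGCCGCg
Nespas, chr2:174295887-174295916: gaattaaatcTGCCGCGGCAcacagcatgc
Peg3, chr7:6730147-6730176: tggtcTGCCGCccctggcccGCGGCAacgc
Mest, chr6:30738168-30738197: tgcctctgcTGCCGCTGCCGCgggccgccc
Grb10, chr11:12026224-12026253: gTGCCGCtcagagacgaatgatcGCGGCAg
Plagl1, chr10:13091061-13091090: ccgTGCCGCgacgggatgggtTGCCGCgct
Snrpn, chr7:60004507-60004536: agcccacaggctGCGGCAacagagctcctg
Ndn, chr7:62348523-62348552: cCGctaacctCGcagggccacCGtgCGctc
Bin with no DBA/2J read, chr7:60523236-60523265: aagCGgggcaCGaggtaCGaccaccctcCG
Bin higher in DBA/2J, chr7:62088632-62088661: attcaggcacaCGtaagCGtacatgtttat

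The ZFP57 hexamer was found in 45 of the 101 control-region bins, 44.6%, against 9.10% of the 465036 autosomal bins outside the domains and 9.33% of the other 879 member bins. Control regions are rich in CpGs, and so is the hexamer. Among bins with over 20 CpGs the shares were 60.0% of 40 control-region bins and 32.6% of bins outside the domains. In that class too the control-region bins were denser, with a median of 32.5 CpGs against 24. The CTCF core was found in 14.9% of control-region bins and in 3.47% of bins outside the domains, and 3 of the 5 bins upstream of H19 held it. A match describes these letters and is not a binding site.

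Per library the table held between 6888589 and 8541280 reads, and the median count of a bin in a library was 15. The capture of CpG-dense DNA differed between libraries: the 101 control-region bins together collected 263 to 395 CPM (counts scaled to the library total after TMM) in 10 libraries and 197 in C57BL/6J young replicate 2. That library is given apart wherever a result rests on it. For control regions, each library's reads were therefore divided by those expected from its own bins outside the domains with the same CpG number. Bins with over 40 CpGs were pooled for this and for percentiles, so the densest bins are not matched on their exact number. For 7 of 10 hepatocyte genes listed as markers, 27 bins were measured, and 12 of them, 44.4%, collected more DNA in DBA/2J, against 2.39% of all bins called for strain. In the mid class 6 of the 27 collected less, against 0.003% of all bins called between mid and young. The lists for lymphocytes (43 bins), Kupffer and myeloid cells (37 bins) and endothelial, stellate and bile duct cells (171 bins) gave 1, 0 and 4 bins called for strain. Captured DNA of these genes describes their methylation and not the number of cells, and its part in the results below was not tested.

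Control regions stood out from other CpG-dense DNA by being in the table at all, since only bins that had collected reads were kept (at least 40 over all libraries, and at least 12 in the library with the second highest count). Of all windows of the assembly outside the domains with over 20 CpGs, 17.7% of 48655 were in the table. Of those in control regions, 40 of 48 were, which is 83.3%. In the rest of the domains the share was 32.3% of 93. With 11 to 15 CpGs the shares were closer, at 66.5% outside the domains and 93.1% of 29 windows in control regions.

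**Figure D1:**
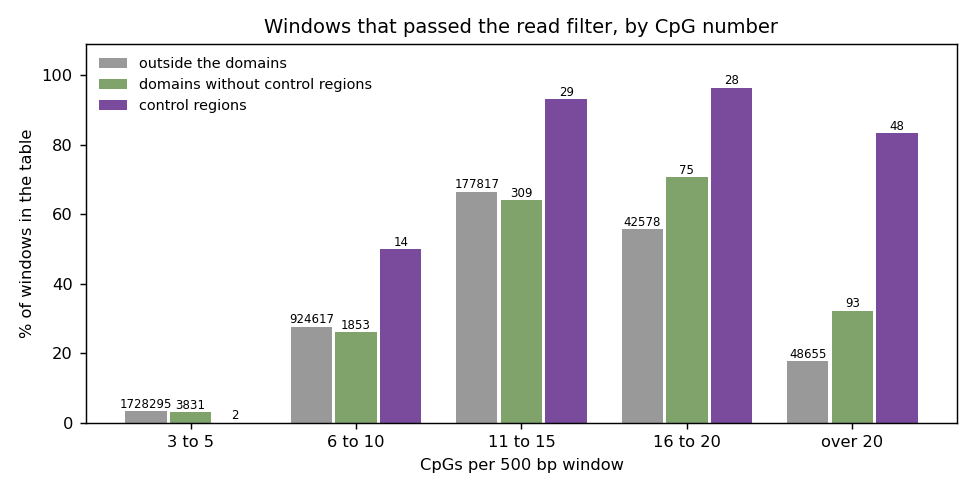
Share of all 500 bp windows of the assembly (%, vertical axis) that are in the deposited table, by number of CpGs in the window (horizontal axis), for autosomal windows outside the domains (grey), windows of the domains outside control regions (green) and windows of control regions (purple). Numbers above the bars count the windows of each kind. Over 20 CpGs, 83.3% of control-region windows were in the table and 17.7% of windows outside the domains.

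By domain, all 9 dense windows of Peg3 and both of Mest were in the table, against 12 of 47 in H19-Kcnq1 and 7 of 28 in Snrpn-Ndn. In H19-Kcnq1 many of the missing ones lie at gene starts outside control regions. All 4 dense windows nearest Ascl2, a transcription factor of the placenta, were absent, as were the 5 of Igf2, the fetal insulin-like growth factor, and the 4 of Phlda2, a brake on placental growth. Also absent were both windows of Cd81, Kcnq1 and Tssc4 and, in the Peg10 domain, the 3 of Casd1. In Snrpn-Ndn many of the missing ones lie far from the gene start they were assigned to. Some annotated starts, such as that of Gm7367, were left out of this assignment. None of the 7 assigned to Gm44644, at least 146652 bp from it, were present. The 3 assigned to A230006K03Rik, at least 81529 bp away, were absent too. Of the 6 assigned to Snrpn, at least 15531 bp away, 1 was present, in an exon of Gm7367 141 bp from its start. By contrast all 3 dense windows of Kcnq1ot1 and both of Airn were present. Kcnq1ot1 and Airn are long noncoding RNAs that start inside control regions and silence neighbours in cis. The 4 of Peg10, the 4 of Peg3 and both of Mest, protein-coding genes with a methylated maternal copy, were present too. Gnas had 15 of 19 windows in the table and Grb10 had 3 of 6. Cdkn1c, a cell cycle inhibitor expressed from the maternal copy with a methylated paternal one, had 4 of 10.

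Within the table, control regions collected close to the amount of DNA that their CpG number gives elsewhere. Over all 101 bins the ratio to the expected reads was 0.873 ± 0.0335 (SD, n = 6) in DBA/2J and 0.872 ± 0.0776 (SD, n = 5) in C57BL/6J. The expectation itself comes from dense bins that passed the read filter, so it leaves out unmethylated islands. Ratios differed between regions. The intergenic region between Dlk1 and Meg3, the germ-line control region of that domain, had the highest mean, 1.24 ± 0.200 (SD, n = 11 libraries), followed by Kcnq1ot1 at 1.07 ± 0.174. Then came Nespas (0.977 ± 0.135), Peg3 (0.970 ± 0.138), Plagl1 (0.946 ± 0.118), Airn (0.931 ± 0.147) and the region upstream of H19 (0.910 ± 0.134). Meg3 (0.875 ± 0.0549), Gnas (0.858 ± 0.0876), Mest (0.827 ± 0.0834) and Snrpn (0.771 ± 0.160) were lower. Peg10 (0.668 ± 0.105) and Grb10 (0.605 ± 0.0944) had the lowest means. No neighbours in this order were further apart than the larger of their SDs.

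The Grb10 region, whose growth factor receptor adaptor is expressed from different parental copies in brain and in other tissues, contains the densest member bin, with 72 CpGs at chr11:12026001-12026500 over a UTR exon. It collected 11 to 25 reads in 10 libraries (in DBA/2J 25, 22, 13, 11, 16 and 13) and 3 in C57BL/6J young replicate 2. The Plagl1 region, at the start of a zinc finger gene that restrains growth, held a bin of 47 CpGs that collected 19 to 45 reads in DBA/2J and 9 to 40 in C57BL/6J. The strains overlapped in both bins.

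**Figure D2:**
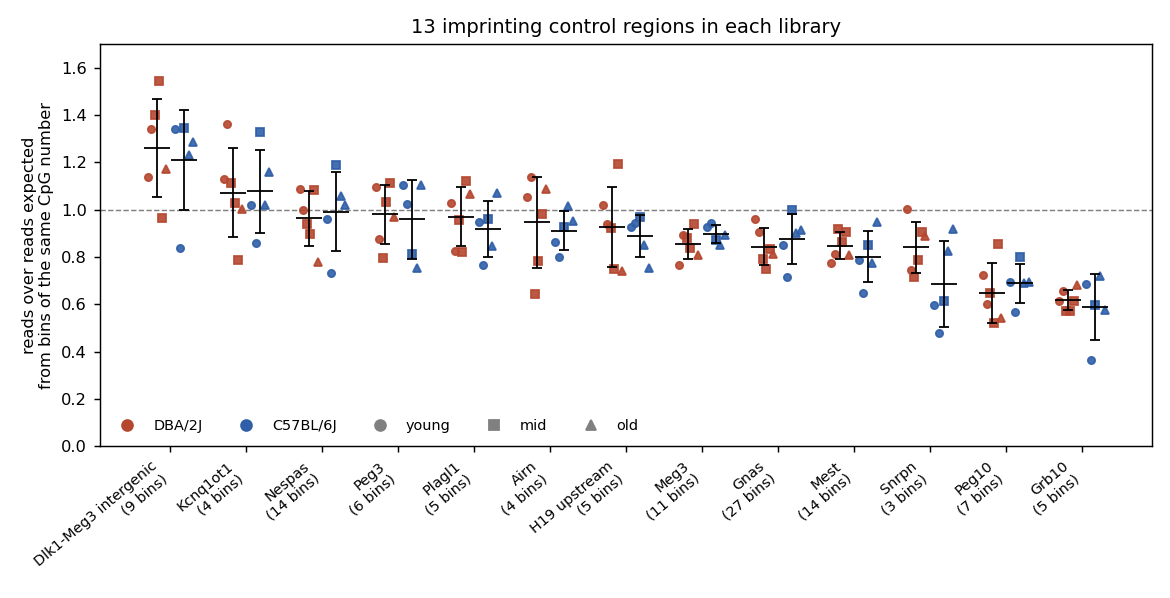
Reads of each of 13 control regions divided by the reads expected from bins of the same CpG number in the same library (vertical axis, linear), in 6 DBA/2J (red) and 5 C57BL/6J (blue) libraries. Circles are young, squares mid and triangles old libraries, black bars are the mean and SD per strain, and the dashed line marks the expected amount. The strains overlap in every region, and C57BL/6J young replicate 2 is the lowest blue point in 10 of the 13.

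Strain did not separate the control regions. None of the 101 bins was called between the strains by edgeR's quasi-likelihood test (adjusted p under 0.05), where 2.39% of all 466039 bins were called. Over all regions together the log2 difference was 0.0045, with an exact permutation p of 0.931. By region it ran from -0.10 for Peg10 to 0.32 for Snrpn, with adjusted exact permutation p values over the 13 regions between 0.896 and 0.935. The Snrpn region, which governs the genes lost in Prader-Willi syndrome, had ratios of 0.716 to 1.00 in DBA/2J with a median of 0.839, and 0.598, 0.478, 0.613, 0.826 and 0.918 in C57BL/6J. The 2 young and the mid C57BL/6J library lay below all 6 DBA/2J libraries and the 2 old ones within them. This difference did not pass (exact permutation p 0.104).

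Among the domains, Snrpn-Ndn was the one in which the summed reads of the strains did not overlap. Its 80 bins together collected 160, 146, 191, 176 and 195 CPM in C57BL/6J, and 86.1 to 125 CPM with a median of 105 in DBA/2J. All 6 DBA/2J libraries lay below all 5 C57BL/6J libraries. The means were 174 ± 20.5 CPM (SD, n = 5) and 104 ± 13.9 CPM (SD, n = 6), a log2 difference of -0.74. The exact 2-sided permutation p was 0.00433, the smallest that 6 against 5 libraries can give, and 0.0433 after Benjamini-Hochberg adjustment over the 10 domains. Leaving out 1 library lowers the number of permutations: the adjusted p then rose above the threshold in 10 of 11 cases, with log2 differences between -0.69 and -0.80. Without C57BL/6J young replicate 2 the difference was -0.80.

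This sum depends on which bins the table holds. In 40 of the 80 bins, 50%, the minimum of 12 reads in the library with the second highest count was reached within C57BL/6J and not within DBA/2J, against 7.44% of bins outside the domains. Such bins are members only through the strain in which they are high, so the p above is no independent support. In 5 bins the minimum was reached only within DBA/2J, and in 35 within each strain. Over those 35, a choice made after seeing the data, the sum was 76.0 to 100.2 CPM in C57BL/6J and 61.2 to 93.6 in DBA/2J. The strains then overlapped, with a log2 difference of -0.27 that did not pass (exact permutation p 0.0606, adjusted 0.577). This choice in turn leaves out bins that are low in 1 strain.

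**Figure D3:**
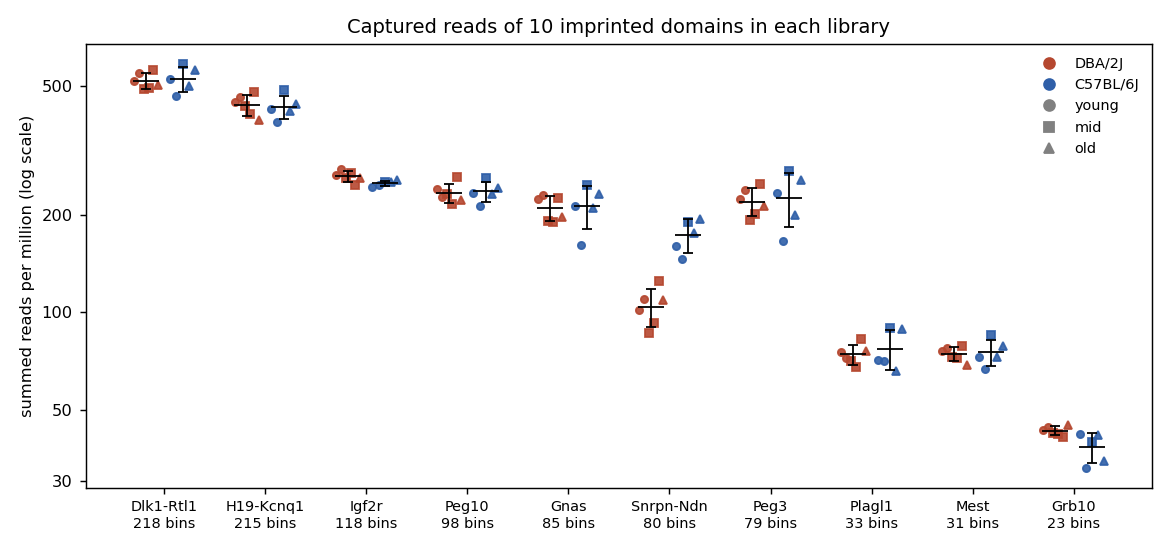
Summed captured reads of each domain in CPM (vertical axis, log scale) for 6 DBA/2J (red) and 5 C57BL/6J (blue) libraries. Circles, squares and triangles are young, mid and old, and black bars are the mean and SD per strain. Snrpn-Ndn has 86.1 to 125 CPM in DBA/2J and 146 to 195 in C57BL/6J, while the strains overlap in the other 9 domains.

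In the other 9 domains the strains overlapped. Grb10 had 33.1 to 42.1 CPM in C57BL/6J and 41.2 to 44.9 in DBA/2J, a log2 difference of 0.17 (exact permutation p 0.026, adjusted 0.13). Igf2r had 244 to 256 CPM in C57BL/6J and 248 to 277 in DBA/2J, a log2 difference of 0.07 (exact permutation p 0.039, adjusted 0.13). Neither passed after adjustment. The remaining 7 differed by -0.05 to 0.02 on the log2 scale, each with an adjusted exact permutation p of 0.909.

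By domain, Dlk1-Rtl1 collected 525, 465, 585, 502 and 562 CPM in C57BL/6J and 489 to 561 with a median of 512 in DBA/2J. H19-Kcnq1 collected 425, 389, 485, 421 and 442 CPM in C57BL/6J and 392 to 481 with a median of 441 in DBA/2J. Gnas collected 213 ± 32.1 CPM (SD, n = 5) in C57BL/6J and 210 ± 18.7 (SD, n = 6) in DBA/2J, and Peg3 226 ± 43.2 and 220 ± 21.8, with overlapping strains in both domains. C57BL/6J young replicate 2 was the lowest C57BL/6J library in 8 of the 10 domains. The deposited relative methylation score had medians between 0.577 (Gnas) and 0.622 (Peg3) in 9 domains and 0.535 in Snrpn-Ndn, against 0.606 over bins outside the domains.

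Of the 8 member bins with the most DNA, picked after their values were seen, 7 lie in coding exons. The highest mean was 8.83 CPM at chr7:6677501-6678000 in an exon of Zim1, a zinc finger gene of the Peg3 cluster. Its 19 CpGs put it at the 99.8th percentile of bins with that CpG number. The 8 include 4 neighbouring bins of Rtl1, a retrotransposon-derived gene needed in the placenta, from chr12:109592501 on, with 8.40, 8.12, 7.17 and 7.64 CPM. Peg3, itself a zinc finger gene, had 7.36 CPM in each of a pair of adjacent exon bins, at the 95.0th and 99.9th percentiles. The remaining one, near Casd1 and outside genes, had 7.71 CPM. The 4 dense bins of Cdkn1c, with 44 to 57 CpGs, had 1.45 to 2.19 CPM and lay between the 22.6th and 44.5th percentiles. Their scores were 0.324 to 0.386, and the lowest adjusted p for strain among them was 0.873 by edgeR's quasi-likelihood test.

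Bin by bin, 27 members were called between the strains, 2 higher and 25 lower in DBA/2J. That is 2.76% of 980, close to the 2.39% of all bins (0.79% higher and 1.6% lower in DBA/2J). The calls were unevenly placed: 25 of the 27 lay in Snrpn-Ndn, 31.2% of its 80 bins, with 2 higher and 23 lower. The other 2 lay in the Plagl1 domain, and the remaining 8 domains had none. The median log2 difference of the Snrpn-Ndn bins was -0.67, against -0.0061 over all bins tested. Of the 27 called bins, 24 reached the read minimum only within C57BL/6J, 2 only within DBA/2J and 1 within each strain, so these counts rest on the same choice of bins.

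The Snrpn-Ndn domain is sparse in the table. It held 2.86 bins per 100 kb, against 11.5 in Grb10 and 17.9 to 54.5 in the other 8. It is also rich in repeats, with a median of 33.1% soft-masked bases per bin against 12.6% outside the domains. Within the domain the 25 called bins had a median masked share of 50% and the 55 others 23.2%. GRCm38 is the genome of C57BL/6J, and reads of both strains were placed on it. The part of repeats and of strain differences in sequence in these results was not tested.

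**Figure D4:**
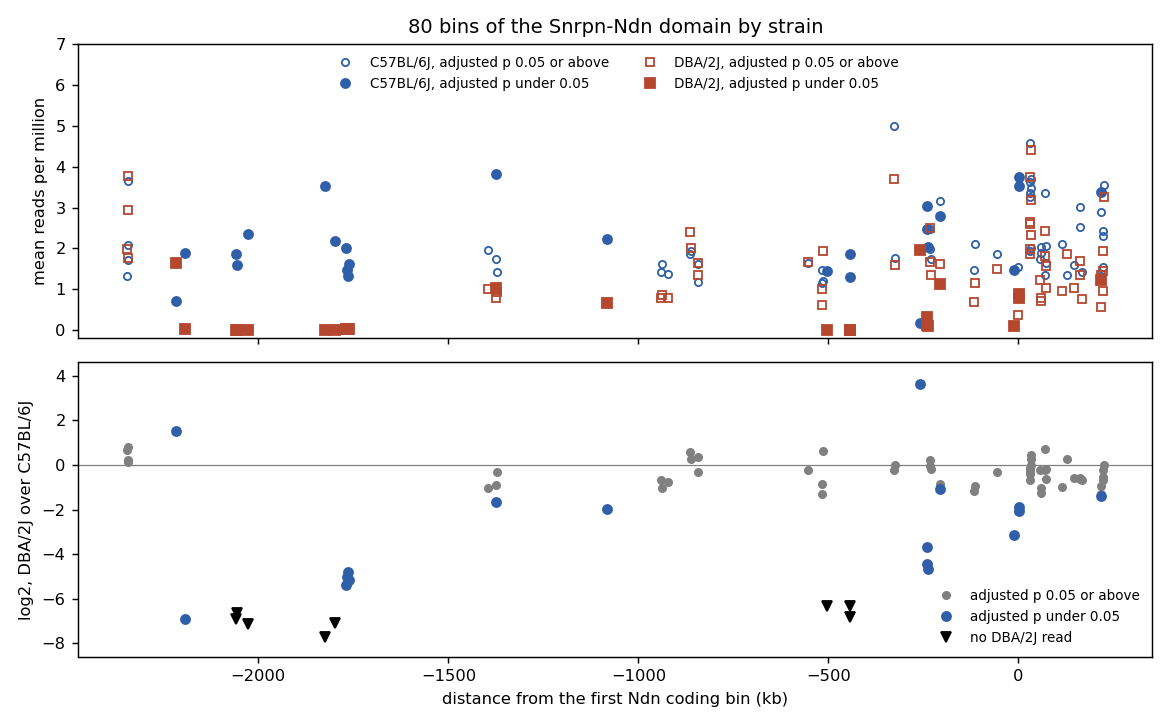
The 80 bins of the Snrpn-Ndn domain by distance from the first coding bin of Ndn in kb (horizontal axis). Above, the mean CPM in C57BL/6J (blue circles) and DBA/2J (red squares), filled where the edgeR adjusted p is under 0.05. Below, the fitted log2 difference, with grey points not called, blue points called and black triangles for the 8 bins with no DBA/2J read, whose fitted value depends on the prior count. Called bins lie on both sides of uncalled ones over the whole domain, and 2 of the 25 are above 0.

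Ndn is the protein-coding gene of the domain with called bins in its coding exon. It encodes necdin, a protein of the MAGE family that promotes exit from the cell cycle in neurons, and is expressed from the paternal copy. The bin at chr7:62348501-62349000, with 25 CpGs in the coding exon and no masked base, collected 21, 25, 32, 26 and 39 reads in C57BL/6J. In DBA/2J it collected 6, 9, 5, 4, 9 and 4. No DBA/2J library reached the lowest C57BL/6J library, and the table's read minimum was reached only within C57BL/6J. The log2 difference was -2.06 ± 0.317 (SE), with an edgeR adjusted p of 3.6e-08. The deposited relative methylation score, on a scale from 0 to 1, was 0.540 in C57BL/6J and 0.352 in DBA/2J.

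The next bin, at chr7:62349001-62349500, also fell, with 26, 23, 26, 28 and 31 reads in C57BL/6J and 3, 12, 6, 5, 8 and 7 in DBA/2J. Its log2 difference was -1.87 ± 0.315 (SE; edgeR adjusted p 8.94e-07), and the table's read minimum was again reached only within C57BL/6J. The bin before them, with 24 CpGs, had a log2 difference of -2.05 ± 0.654 and did not pass (edgeR adjusted p 0.0648). A bin 10818 bp from the nearest Ndn start, at chr7:62335501-62336000, collected 16, 4, 9, 16 and 11 reads in C57BL/6J. It collected 5 reads in DBA/2J young replicate 1 and none in the other 5 DBA/2J libraries, and its call was lost in 5 of 18 alternative settings.

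Magel2, Mkrn3 and Peg12, neighbours of Ndn in the cluster, are paternally expressed too, and their coding bins were not called. Over the 3 coding bins of Ndn, libraries summed to 1.39 to 3.37 CPM in DBA/2J with a median of 1.68, and to 7.09, 7.69, 10.01, 8.16 and 11.2 in C57BL/6J. Over the 8 coding bins of Magel2, another MAGE gene involved in protein recycling in the hypothalamus, DBA/2J summed to 22.7 ± 4.51 CPM (SD, n = 6) and C57BL/6J to 25.9 ± 3.39 (SD, n = 5). Mkrn3, a ubiquitin ligase that holds back puberty, summed to 6.86 ± 1.53 CPM in DBA/2J and 8.42 ± 2.36 in C57BL/6J over 4 bins. The strains overlapped in both genes. The single bin of Peg12, chr7:62463001-62463500, had a log2 difference of -1.005 ± 0.363 (edgeR adjusted p 0.152). The 2 called coding bins of Ndn reached the read minimum only within C57BL/6J, so the sum of Ndn rests in part on that choice of bins. Whether the difference at Ndn exceeds those of its neighbours was not tested.

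**Figure D5:**
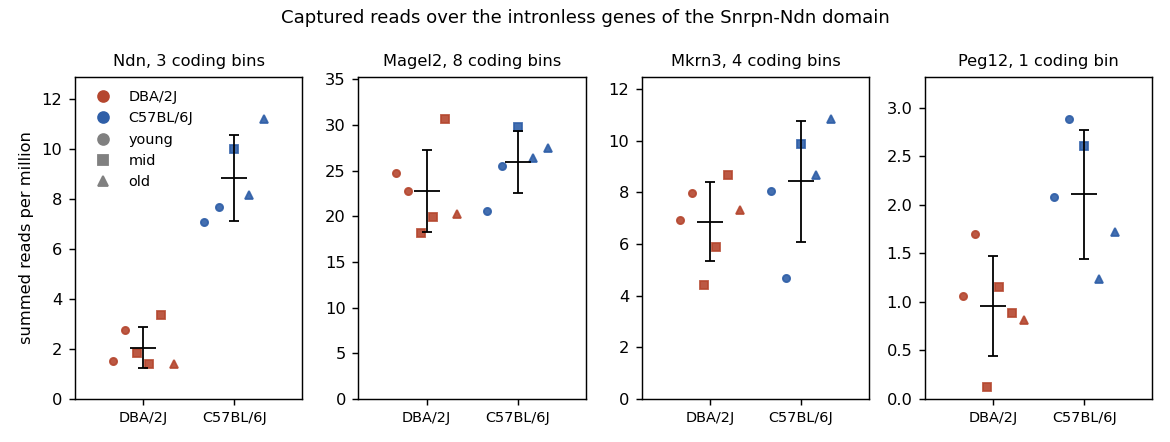
Summed CPM of the coding bins of Ndn, Magel2, Mkrn3 and Peg12 in each library (vertical axes from 0, each panel with its own scale), DBA/2J in red and C57BL/6J in blue, with the mean and SD per strain in black and age classes as circles (young), squares (mid) and triangles (old). The strains are apart at Ndn (1.39 to 3.37 against 7.09 to 11.2 CPM) and overlap in the other 3 panels. The 2 called bins of Ndn reached the read minimum only within C57BL/6J.

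Of the called bins, 8 had no read in any of the 6 DBA/2J libraries. Such bins made up 10% of the 80 in Snrpn-Ndn, 0 of the 900 other members and 0.156% of bins outside the domains. No member bin lacked reads in C57BL/6J. The bin with the most C57BL/6J reads, at chr7:60523001-60523500, 120640 bp from the nearest annotated start (Gm3198), collected 19, 21, 24, 31 and 40. Against a limit of 3 reads over the 6 DBA/2J libraries, C57BL/6J was at least 56.4-fold higher there and at least 20.9-fold higher in each of the 8. These limits leave out the counting error of the C57BL/6J reads; with it, the exact 95% binomial interval of the ratio starts at 45.3 for that bin and at 16.4 for the lowest of the 8. Of these, 4 lie outside annotated genes, 3 in introns of the noncoding RNA A230057D06Rik and 1 in an exon of Gm30196. Without these 8 bins the domain's log2 difference was -0.60 (exact permutation p 0.00433, adjusted 0.0433). The remaining sum still holds bins that reached the read minimum only within C57BL/6J, so this p is no independent support either.

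Of the other 12 bins that were lower in DBA/2J, 6 lie outside genes, 5 in introns and 1 in a noncoding exon. Over Gm9801, 4 intron bins fell, with log2 differences of -3.66, -4.45, -4.69 and -1.08, and the last of them was lost in 10 of 18 settings. Outside genes, 58140 to 65140 bp from the start of Gm3198, 4 bins had 1 or 2 DBA/2J reads in all. The single bins were in an exon of Gm7367 (39 CpGs; 1 DBA/2J read), in an intron of A230006K03Rik (-1.97), 12865 bp from the start of Gm44643 (-1.64) and 13465 bp from that of the vomeronasal receptor pseudogene Vmn2r-ps61 (-1.38).

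Higher in DBA/2J were 2 bins of the domain. One, at chr7:62088501-62089000, lies 3440 bp from the microRNA gene Mir344i and has 4 CpGs. It collected 1, 1, 2, 2 and 1 reads in C57BL/6J and 23, 13, 14, 8, 10 and 28 in DBA/2J, a log2 difference of 3.61 ± 0.555 (SE; edgeR adjusted p 3.51e-08). The strains were fully apart, but the bin reached the table's read minimum only within DBA/2J, so this p is no independent support. The other, in an intron of Snrpn at chr7:60132501-60133000, had a log2 difference of 1.53 ± 0.449 (SE; edgeR adjusted p 0.0318). It was lost in 11 of 18 alternative settings, and it too reached the read minimum only within DBA/2J.

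In the Plagl1 domain both called bins lie away from the gene's control region. The bin at chr10:13136001-13136500, 19886 bp from the nearest Plagl1 start, collected 16, 17, 18, 13 and 26 reads in C57BL/6J and 8, 5, 5, 12, 4 and 11 in DBA/2J (log2 difference -1.38 ± 0.357, edgeR adjusted p 0.00731). The bin near Gm47691, at chr10:13052001-13052500, had a log2 difference of -1.73 ± 0.524 (edgeR adjusted p 0.0433). Both were lost in several alternative settings, 7 and 11 of 18. Both also reached the table's read minimum only within C57BL/6J, so their p values are no independent support. The 5 bins of the Plagl1 control region were not called.

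Elsewhere, the member bin nearest the threshold in 7 of the domains can be given as a value. Dlk1, a membrane protein that restrains differentiation and is expressed in fetal liver, had a bin with 33 CpGs at its start, chr12:109459501-109460000. It collected 23 to 47 reads in DBA/2J with a median of 37, and 14, 9, 33, 37 and 37 in C57BL/6J. The 2 young C57BL/6J libraries were the low ones (log2 difference 0.77 ± 0.25, edgeR adjusted p 0.0777). In the Gnas domain, which encodes the stimulatory G protein alpha subunit, the nearest was a bin by Gm10714 (-1.06 ± 0.346, edgeR adjusted p 0.078). In H19-Kcnq1 it was an exon of H19, a noncoding RNA of fetal liver, with -0.77 ± 0.292 (edgeR adjusted p 0.19). In the Peg10 domain, named for a retrotransposon-derived gene of the placenta, a bin by Gm26828 had 0.89 ± 0.317 (edgeR adjusted p 0.143). Grb10 (0.79 ± 0.294), Zim2 in the Peg3 domain (-0.80 ± 0.339) and Mest (0.58 ± 0.276) had edgeR adjusted p values of 0.177, 0.31 and 0.436.

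Age left no called bin in any domain. Between old and young libraries edgeR called 0 of 980 members, where it called 0.00236% of all bins. An unadjusted p under 0.05 was reached by 45 members, 4.59%, against 5.18% of all bins, and DESeq2 called 0 with 14 at that level. Between mid and young libraries the count was also 0, against 0.003% of all bins. An unadjusted p under 0.05 was reached there by 54 members, 5.51%, against 5.01% of all bins, and by 24 with DESeq2. The shares of all bins by DESeq2 are not given here, so its counts cannot be set against them. The smallest adjusted p among members was 0.779 for old and 0.439 for mid, both from edgeR.

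The smallest p for old against young belonged to a bin outside genes in the Peg10 domain, at chr6:4665501-4666000, 34623 bp from the nearest start (Casd1). It had 10 to 21 reads in the 8 young and mid libraries, and 15, 3 and 5 in the old ones (log2 difference -1.19 ± 0.396, edgeR adjusted p 0.779). The old DBA/2J library was within the range of the younger ones. Kcnq1, a potassium channel gene, had an intron bin at 1.23 ± 0.423 and Rian, a noncoding RNA of the Dlk1 cluster, one at -1.16 ± 0.400 (edgeR adjusted p 0.806 for both). By domain the old against young differences were -0.04 for H19-Kcnq1 and 0.28 for Snrpn-Ndn at the ends, with adjusted exact permutation p values of 1. Snrpn-Ndn was uneven in strain: 2 of 4 young and 2 of 3 old libraries were C57BL/6J. The smallest exact p that 3 against 4 libraries allow is 0.0571.

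Control regions gave a ratio of 0.880 in old and 0.858 in young libraries (log2 difference 0.04, exact permutation p 0.914). The region upstream of H19 had 1.02, 0.940, 0.928 and 0.943 in young libraries and 0.742, 0.849 and 0.753 in old ones. Old libraries lay below all young ones, with a log2 difference of -0.30 and the smallest exact permutation p possible, 0.0571 (adjusted 0.743). Mid libraries had 0.922, 0.750, 1.19 and 0.969, which spans both. The Snrpn region was 0.37 higher in old libraries on the log2 scale (exact permutation p 0.286, adjusted 0.929).

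A difference between the strains in the slope with age was tested per 100 days. No member was called by edgeR, where 0.000858% of all bins were, and 106 members, 10.8%, had an unadjusted p under 0.05 against 8.46% of all bins. The smallest adjusted p was 0.221. Leaving out 1 library changed this in 2 cases. Without DBA/2J old replicate 1, a bin of Gnas with 40 CpGs and a bin at Airn with 38 were called with a lower slope in DBA/2J (edgeR adjusted p 0.0171 and 0.0262). The DBA/2J slope then rests on 108 to 345 days alone, and that of C57BL/6J on 107 to 711. Without C57BL/6J young replicate 1, a bin of Peg10 with 43 CpGs was called in the same direction (edgeR adjusted p 0.032). All 3 are control-region bins, and they are named after their values were seen. The share of all bins called in these 2 fits is not given here, so the calls cannot be set against it. With all libraries their edgeR adjusted p values were 0.548, 0.498 and 0.251. The Airn bin collected 47 and 32 reads in young, 13, 14 and 17 in mid and 27 in old DBA/2J libraries, against 21 and 16, 43, and 25 and 35 in C57BL/6J. Within DBA/2J its counts were lowest in the mid libraries and highest in a young one. The other 2 bins also had fewer reads in C57BL/6J young replicate 2, 18 and 12, than in any other C57BL/6J library.

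The capture of dense bins outside the domains (over 20 CpGs) also differed between libraries. Per bin they collected 1.90 and 1.98 times the mean of all bins in young DBA/2J libraries, 1.46, 1.48 and 1.90 in mid ones and 1.48 in the old one. In C57BL/6J the values were 1.69 and 1.22 in young, 2.16 in mid and 1.73 and 2.07 in old libraries. In DBA/2J the Airn bin had 47 and 32 reads in the young libraries, at 1.90 and 1.98. It had 13, 14 and 17 in the mid ones, at 1.46, 1.48 and 1.90, and 27 in the old one, at 1.48. In C57BL/6J it had 16, 21, 25, 35 and 43 reads at values of 1.22, 1.69, 1.73, 2.07 and 2.16. The part of dense capture in the 3 calls was not tested.

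Sex, known only from the 2 mid males, also gave 0 called members, against 0.00343% of all bins, with 121 members (12.3%) at an unadjusted p under 0.05 against 7.79% of all bins. The male libraries were among those with high capture of dense DNA, at 1.90 and 2.16 against 1.22 to 2.07 in females.

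Further imprinted genes, from a list of 32 that includes Nnat, Rasgrf1, Peg13 and Zdbf2, were in the table with 30 genes and 788 bins. The list also holds Zim1, Copg2 and Slc22a2, which have bins inside the domains. Of the 788 bins 3 were higher and 2 lower in DBA/2J, 0.635% of the bins against 2.39% of all bins, and none was called for age. Of 20 factors that set or keep imprints, 19 had 451 bins, with 3 higher and 1 lower in DBA/2J, 0.887% and also below the share of all bins. Dppa3, which guards the maternal genome of the zygote, had 2 of the higher bins, and Smchd1, a chromatin protein of X inactivation and imprinted clusters, had 1 in each direction.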

How the data were processed

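Methylated DNA was captured with the MethylCap kit and sequenced on an Ion Proton, per the labels' protocols. The deposited table gives, per the file headers, raw read counts that MEDIPS made for bins of 500 bp, and a relative methylation score, a fraction from 0 to 1 that MEDIPS normalizes to CpG density. The submitters' processing notes name FastQC, Trimmomatic 0.30, SAMtools, edgeR and mm10; the aligner is not given in the sources used here. Every bin had at least 3 CpGs, 40 reads over all libraries and 12 in the library with the second highest count. The CpG numbers equal those of GRCm38 in 100% of bins, and genes are from GENCODE vM21.

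All 466039 bins were fitted with edgeR 4.0.16 (TMM normalization, quasi-likelihood test, strain, sex and age class as terms, Benjamini-Hochberg over all bins, threshold 0.05), for all 11 libraries. The slope difference used age per 100 days. The prior on the spread had 4723 degrees of freedom against 6 in a bin, so a p-value hardly draws on the bin's own spread. On simulated data for strain with 466039 bins, 12% of changes of 1 on the log2 scale and 79% of changes of 2 were recovered, with 4 false calls. The simulation gave all bins the same spread and left out library differences in the capture of dense DNA, so these rates need not hold for the real data. Domain sums and control regions were compared by exact 2-sided permutation of libraries (SciPy 1.17.1). DESeq2 1.42.0 and limma 3.58.1 served as alternatives. Limits for bins at 0 use 3 reads over the group and cover counting error only. Named bins are all that were called, the bin with the smallest p for strain and for old against young in each domain, and each control region; the bins of Magel2, Mkrn3, Peg12 and the first coding bin of Ndn were chosen after their values were seen. A bin that the rule names is not reported here. The members and lists were chosen with earlier results of these data known.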

Additional observations from a re-analysis of the deposited data

Results flagged for a closer look

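Of 46 groups of values checked for a library far from the others, 1 was flagged, where chance flags about 1 in 20. In the intergenic control region between Dlk1 and Meg3, C57BL/6J young replicate 2 had 0.839 of the expected reads and the other 4 C57BL/6J libraries 1.23 to 1.35.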

How the results depend on the processing

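The 25 member bins lower in DBA/2J became 20 with DESeq2, 32 without the sex term and 21 to 26 when 1 library was left out. Among bins with a mean of at least 20 reads, 272 members were tested and 0 were called in either direction. None of the 27 called bins reached that mean, so they were not tested there. The 2 higher bins became 1 with DESeq2, with females alone, without the sex term and with limma voom (an alternative chosen after seeing the data), and 1 to 4 when 1 library was left out. The share of all bins called in these settings is not given here, so the member counts cannot be set against it. Of the 27 called bins, 21 were called in all 18 settings that tested them. The domains past the threshold for strain numbered 1, 0 with females alone, 0 over bins that meet the read minimum within each strain (chosen after seeing the data; -0.27 for Snrpn-Ndn) and 0 to 2 without 1 library; Igf2r joined without DBA/2J mid replicate 3 (log2 difference 0.087). The old against young difference of H19-Kcnq1 ran from -0.091 to 0.0031 when 1 library was left out, the last without DBA/2J old replicate 1. The slope comparison called 0 to 2 lower bins without 1 library. No setting called a member for old or mid against young, or a control region as a whole for strain or age. No paired analysis was possible because the library numbers in the titles are unique and pair no samples across groups. Depth limits the bins: the median was 15 reads, and in the simulation most changes of 1 on the log2 scale were missed. The smallest exact permutation p for age is 0.0571.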
